A study of Homo sapiens with 8 samples.

Results

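Matrix metalloproteinases (MMPs), their tissue inhibitors (TIMPs) and the plasminogen activators were examined in 2 clear cell renal cell carcinoma lines, 769-P and CAKI-1, cultured with or without branched-chain amino acids (BCAA). The group was set by name and held 10 genes: MMP1, MMP2, MMP7, MMP14, TIMP1, TIMP2, TIMP3, PLAU, PLAUR and PLAT. They were 10 of the 27776 genes listed for either cell line. In 769-P all 10 were listed, and in CAKI-1 9 were, all but TIMP3. The libraries with BCAA came from cells supplied for 16 hours with leucine and isoleucine at 0.38 mM each and with valine at 0.17 mM, and those without BCAA from cells kept the same time in medium lacking these amino acids. The BCAA-depleted medium was an amino acid-free RPMI base with dialyzed serum, whereas the lines were otherwise grown in different media, 769-P in RPMI and CAKI-1 in MEM. Each line is an established culture with no added transgene or drug in these samples. There were 2 libraries for each condition in each line, 8 in all, and nothing in the labels says that they came from separate cultures, so the p-values measure only the spread between these libraries.

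MMPs are zinc-dependent endopeptidases that cut collagens and other matrix proteins outside the cell or at its surface. They are made as inactive precursors, in which a cysteine of the propeptide binds the catalytic zinc, and TIMPs block the active enzymes. Urokinase (PLAU), held at the cell by its receptor (PLAUR), and tissue plasminogen activator (PLAT) convert plasminogen to plasmin, a broad serine protease that can also activate some MMP precursors. In renal carcinoma these systems are studied for their part in invasion through the basement membrane.

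The 4 MMP members are shown here by the coding sequence of the cysteine switch and of the zinc-binding site, the elements that define the family. The cysteine switch spans 21 bases, with the cysteine codon in capitals.

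MMP1: cccagaTGTggagtgcctgat

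MMP7: cccagaTGTggagtgccagat

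MMP14: ccccgaTGTggtgttccagac

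MMP2: ccacgcTGCggcaacccagat

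The zinc-binding site spans 33 bases, with the codons of the 3 zinc-binding histidines in capitals.

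MMP1: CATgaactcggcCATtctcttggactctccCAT

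MMP7: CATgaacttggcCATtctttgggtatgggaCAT

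MMP14: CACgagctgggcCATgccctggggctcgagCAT

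MMP2: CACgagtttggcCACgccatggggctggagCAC

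These stretches were read from the GENCODE release 29 transcripts (GRCh38) and are coding. In MMP1 they lie on the reverse strand in exon 2 (chr11:102797318-102797338) and exon 5 (chr11:102795549-102795581), and in MMP7 also in exon 2 (chr11:102527819-102527839) and exon 5 (chr11:102523343-102523375) of the reverse strand. In MMP14 they lie on the forward strand in exon 3 (chr14:22841926-22841946) and exon 5 (chr14:22843283-22843315), and in MMP2 on the forward strand in exon 2 (chr16:55483053-55483073) and exon 8 (chr16:55491827-55491859). MMP1 and MMP7 shared 20 of the 21 bases of the cysteine switch but 24 of the 33 bases of the zinc-binding site. MMP2 and MMP14 shared 27 of the 33 bases of the zinc-binding site and 13 of the 21 bases of the cysteine switch. The pair with the most shared bases was thus not the same at both sites.

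The deposited values were reads per gene divided by the size factor of the library, and the libraries held 39062721 to 64256834 reads on listed genes in 769-P and 30979773 to 47054568 in CAKI-1. In 769-P both libraries with BCAA were deeper than both without. With every library thinned to 30979773 reads the same number of members was called, 5 higher and 4 lower. Over all 20887 genes tested after thinning, 4080 were called higher and 3707 lower. The transcription factor PAX8, a marker of renal epithelium, was at 15237 and 14547 with BCAA and 23240 and 23271 without in 769-P. It was thus lower with BCAA there (log2 fold change -0.64, limma adjusted p = 1.3e-07). In CAKI-1 PAX8 was at 8700 and 10387 with BCAA and 10654 and 10739 without (-0.17, limma adjusted p = 0.15). CA9, a marker of clear cell carcinoma, was listed in neither line. PAX2 was at 933 to 1172 in 769-P and not listed in CAKI-1, and NDUFA4L2 was at 1 to 3 reads a library in 769-P. In 769-P, 1 of 4 endothelial markers and 3 of 5 leukocyte markers were listed, and in CAKI-1, 2 and 2, in no case above 3 reads in every library. Fibroblast markers summed to 248 to 331 in 769-P, with 4 of 6 genes listed. In CAKI-1 all 6 were listed and summed to 125023 to 149612 with BCAA and to 102482 to 120308 without, most of it COL1A1. The summed renal and clear cell list, most of it VIM, was 128671 to 132674 with and 137647 to 139946 without BCAA in 769-P, and 85018 to 89088 with and 122919 to 126886 without in CAKI-1. VIM itself did not pass in 769-P (log2 fold change -0.04, limma adjusted p = 0.42). There PAX8 and NNMT were lower with BCAA, and PAX2 and KRT8 were higher (0.29 and 0.18). In CAKI-1 VIM was lower with BCAA (-0.65, limma adjusted p = 2.1e-05). The part of these shifts in the results for the members was not tested, and in bulk RNA fewer cells of a kind cannot be told apart from less RNA per cell. SNAI1, an inducer of the epithelial-to-mesenchymal transition that the study followed, was at 170 and 126 with BCAA and 26.1 and 18.3 without in 769-P, and at 429 and 360 with and 202 and 166 without in CAKI-1.

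In 769-P cells, 9 of the 10 members passed the test between BCAA conditions (limma on log2(value + 1), adjusted p below 0.05 over all genes tested). Of these, 5 were higher with BCAA (MMP1, MMP2, TIMP1, PLAU and PLAT) and 4 were lower (MMP14, TIMP2, TIMP3 and PLAUR), so neither the proteases nor the inhibitors moved as a block. Over all 22391 genes tested in 769-P, 20.3% were called higher and 18.2% lower, and among genes whose mean value reached 100, as for 9 of the members, 63% were called in 1 direction or the other. The share of members called was thus above the share of all genes, though the background among well expressed genes was itself high. The libraries with and without BCAA did not overlap for any of the 10 members, which held for 67% of all genes tested. The median log2 fold change was 0.30 for the members and -0.02 for all genes.

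In CAKI-1 cells, 3 of the 9 members passed the test. MMP7 was higher with BCAA, and MMP2 and MMP14 were lower. Over all 21347 genes tested in CAKI-1, 10.8% were called higher and 9.05% lower, and 34.2% of those whose mean reached 100 were called in either direction, so 3 of 9 was close to the background. The libraries with and without BCAA did not overlap for 5 of the 9 members, against 57.7% of all genes tested. The median log2 fold change was -0.17 for the members and -0.01 for all genes.

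**Figure D1:**
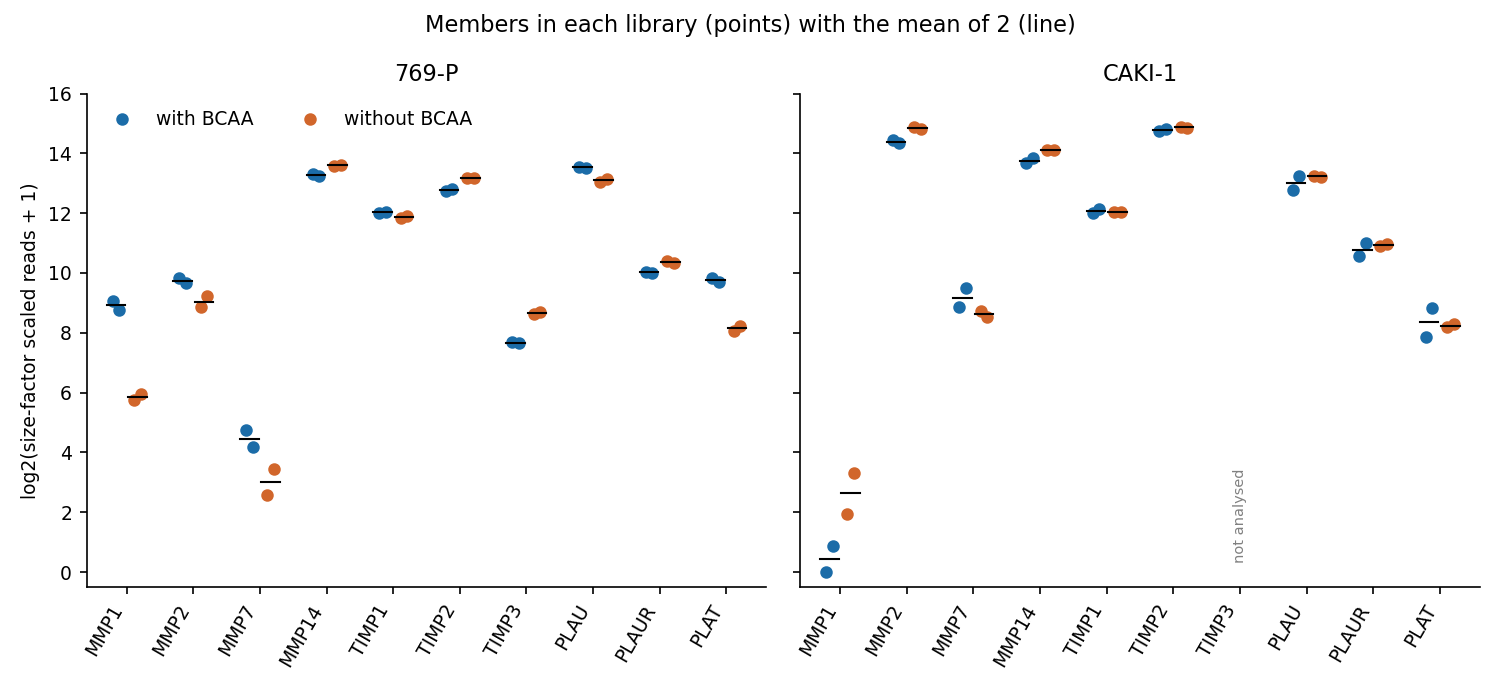
Values of the members in each of the 8 libraries, as log2(size-factor scaled reads + 1) on the y axis, with each point a library and each black line the mean of 2 libraries of a condition. In 769-P MMP1 and PLAT show the widest gaps between conditions, and in CAKI-1 the 2 libraries with BCAA (blue) lie apart from each other for MMP7, PLAU, PLAUR and PLAT.

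MMP1, the interstitial collagenase, had the largest change of the members in 769-P. Its values were 535 and 434 with BCAA and 53.4 and 61.1 without, from 705, 508, 43 and 50 reads. Both libraries with BCAA were far above both without, and the mean was 8.46-fold higher with BCAA (log2 fold change 3.05 ± 0.17 (SE), adjusted p = 5.6e-08, n = 2 libraries per condition). The call held under every alternative run, with a log2 fold change of 2.87 to 3.10, or of 2.905 to 3.203 with 1 library left out. In CAKI-1 the gene was at the limit of detection, with 0 and 1 reads with BCAA and 3 and 7 reads without. The ratio of the summed reads, with over without BCAA, was 0.082 (95% interval 0.0019 to 0.58, exact, counting error only), and the difference did not pass the test (adjusted p = 0.11). It passed (adjusted p = 0.00629) where the spread was taken from all 8 libraries. MMP1 shares 150 of its 1970 exon bases with WTAPP1, a transcribed pseudogene on the other strand that had at most 7 reads in a CAKI-1 library, and reads of the 2 could not be told apart if strand was not used in counting.

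MMP2, gelatinase A, changed in opposite directions in the 2 lines. In 769-P its values were 912 and 805 with BCAA and 465 and 593 without, so both libraries with BCAA were higher (1.62-fold, log2 fold change 0.71 ± 0.12 (SE), adjusted p = 4.2e-04). In CAKI-1 its values were 22230 and 20842 with BCAA and 30382 and 28663 without. Here both libraries with BCAA were lower, and the mean without BCAA was 1.37-fold that with BCAA (log2 fold change -0.46 ± 0.06 (SE), adjusted p = 3.1e-04). The effect in 769-P exceeded that in CAKI-1 by 1.16 on the log2 scale (95% interval 0.87 to 1.45, adjusted p = 3.8e-05 for the interaction).

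MMP14, the membrane-anchored MMP that activates the MMP2 precursor, was lower with BCAA in both lines. In 769-P its values were 10071 and 9618 with BCAA and 12345 and 12419 without (log2 fold change -0.33 ± 0.04 (SE), adjusted p = 5.7e-05). In CAKI-1 they were 13042 and 14630 with and 17728 and 17771 without (log2 fold change -0.36 ± 0.06 (SE), adjusted p = 0.0019). The means without BCAA were 1.26-fold and 1.28-fold those with BCAA, and no library of a condition reached the range of the other. The effects in the 2 lines differed by 0.03 on the log2 scale (95% interval -0.14 to 0.20, adjusted p = 0.83 for the interaction). A small difference within this interval was not excluded.

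MMP7, matrilysin, a small MMP without the hemopexin domain of the others, was low in 769-P. Its values there were 25.8 and 17.1 with BCAA and 4.97 and 9.78 without, from 34, 20, 4 and 8 reads. Both libraries with BCAA were higher, but the log2 fold change of 1.46 ± 0.56 (SE) did not pass the test (adjusted p = 0.058). It passed in 5 of 13 alternatives. Those were a pseudocount of 10 (adjusted p = 0.0337), a minimum mean of 10 (0.0429), the spread of all 8 libraries (0.00259), a replicate block (0.0481) and edgeR (0.0471). It did not pass with thinned reads (0.14), no filter (0.104), a pseudocount of 0.1 (0.0717) or quantile normalization (0.0724), nor with DESeq2 (0.152). In CAKI-1 MMP7 was at 463 and 718 with BCAA and 419 and 371 without. The library with BCAA and replicate number 2 stood well above the other 3, and the first one only a little above those without BCAA. The log2 fold change of 0.55 ± 0.17 (SE) passed the test narrowly (adjusted p = 0.045). The call was lost with a pseudocount of 0.1 (adjusted p = 0.0746) or 10 (0.0569), with no filter (0.1), with a minimum mean of 10 (0.0512), with quantile normalization (0.159), with thinned reads (0.109) and with the spread of all 8 libraries (0.266), and the log2 fold change was 0.23 without replicate 2 with BCAA.

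**Figure D2:**
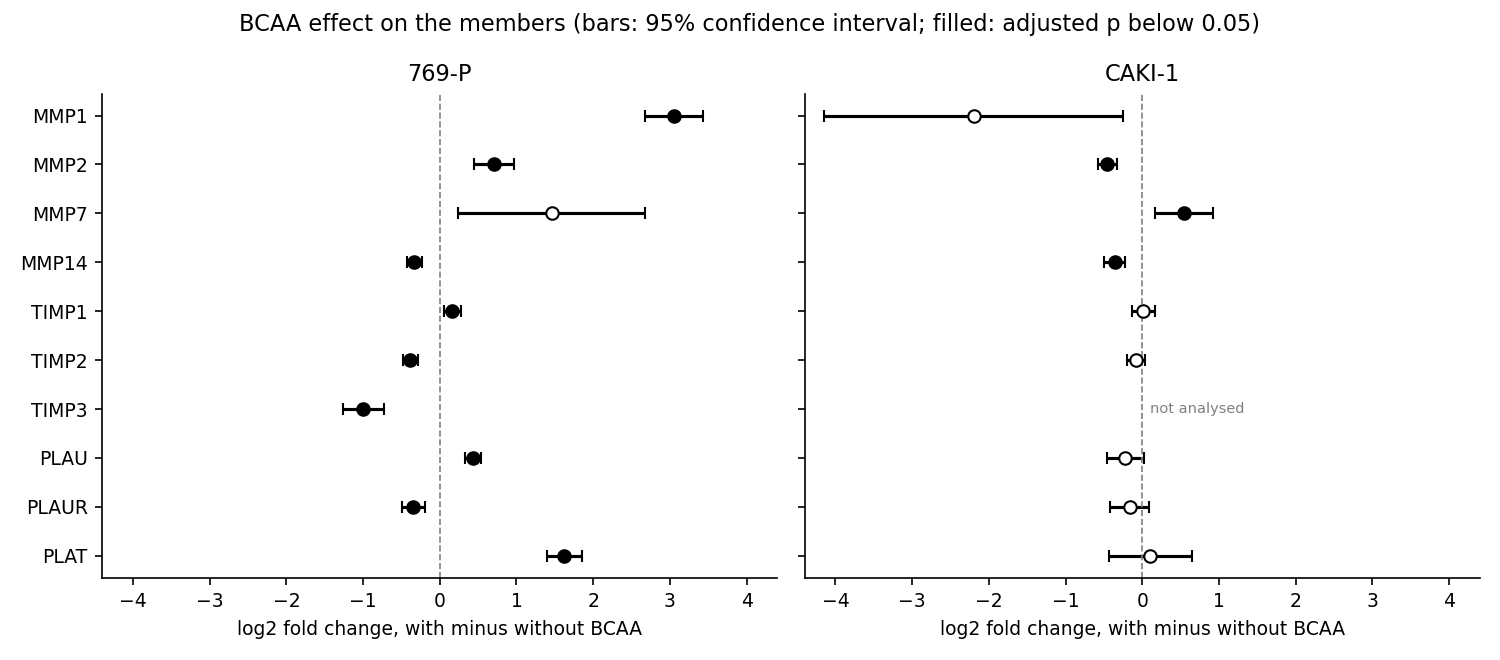
Log2 fold change of each member, with minus without BCAA (x axis), in 769-P (left) and CAKI-1 (right), with bars for the 95% confidence interval of the limma fit and filled points for an adjusted p below 0.05. MMP14 is lower with BCAA in both lines, MMP2 lies on opposite sides of 0 (0.71 and -0.46), and the CAKI-1 interval for MMP1 rests on 0 to 7 reads a library.

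Among the inhibitors, TIMP3, which binds to the matrix itself, was lower with BCAA in 769-P. Its values were 205 and 199 with BCAA and 396 and 413 without, so the mean without BCAA was 2.004-fold that with it (log2 fold change -0.999 ± 0.12 (SE), adjusted p = 3.7e-05). TIMP2, which both inhibits MMP2 and takes part in its activation by MMP14, was at 6915 and 7246 with BCAA and at 9261 in both libraries without it (log2 fold change -0.39 ± 0.04 (SE), adjusted p = 2.1e-05). In CAKI-1 TIMP2 was at 27661 and 28707 with and 30126 and 29695 without. These groups did not overlap either, but the log2 fold change of -0.09 (95% interval -0.20 to 0.03) did not pass the test (adjusted p = 0.31). The TIMP2 effect was lower in 769-P than in CAKI-1 by 0.30 on the log2 scale (95% interval -0.44 to -0.16, adjusted p = 0.0041).

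TIMP1, the broadly expressed inhibitor, had the smallest called change in 769-P. Its values were 4103 and 4227 with BCAA and 3634 and 3806 without (1.12-fold, log2 fold change 0.16 ± 0.05 (SE), adjusted p = 0.024), and the call was lost with quantile normalization (adjusted p = 0.0839) and with any 1 library left out (0.069 to 0.229, spread from the other 7). In CAKI-1 its values of 4066 and 4515 with BCAA lay on both sides of the 4244 and 4231 without (log2 fold change 0.02, 95% interval -0.13 to 0.16, adjusted p = 0.90). The effects on TIMP1 in the 2 lines did not differ past the threshold (0.15, 95% interval -0.03 to 0.33, adjusted p = 0.24).

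PLAT had the second largest called change of the members in 769-P. Its values were 917 and 828 with BCAA and 268 and 297 without, a 3.09-fold higher mean with BCAA (log2 fold change 1.62 ± 0.10 (SE), adjusted p = 1.5e-07). PLAU was at 12060 and 11708 with BCAA and at 8472 and 9107 without, 1.35-fold higher (log2 fold change 0.44 ± 0.05 (SE), adjusted p = 1.3e-05). PLAUR went the other way, with 1042 and 1027 with BCAA and 1337 and 1293 without (log2 fold change -0.35 ± 0.07 (SE), adjusted p = 0.0015). Its call was lost with any 1 of the 4 libraries left out and the spread taken from the other 7 (adjusted p = 0.0626 to 0.104). The activators were thus higher and the urokinase receptor lower with BCAA in this line.

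None of these 3 genes passed the test in CAKI-1. PLAU was at 7073 and 9580 with BCAA and 9620 and 9550 without (log2 fold change -0.22, 95% interval -0.46 to 0.02, adjusted p = 0.19). PLAUR was at 1501 and 2036 with and 1912 and 2011 without (log2 fold change -0.17, 95% interval -0.42 to 0.09, adjusted p = 0.37). PLAT was at 229 and 458 with and 289 and 314 without (log2 fold change 0.10, 95% interval -0.44 to 0.64, adjusted p = 0.82). For all 3 genes the 2 libraries with BCAA lay further apart than the 2 without, with replicate 2 above replicate 1. With 1 of these libraries left out, the log2 fold change of PLAU was -0.44 without replicate 2 and -0.00076 without replicate 1. That of PLAUR was -0.39 without replicate 2 and 0.054 without replicate 1, and that of PLAT was -0.40 without replicate 2 and 0.60 without replicate 1. With the spread of the other 7 libraries, PLAU and PLAUR passed the test without replicate 2 and PLAT passed without replicate 1. The BCAA effect was larger in 769-P than in CAKI-1 for PLAT, by 1.52 on the log2 scale (95% interval 0.83 to 2.21, adjusted p = 0.0039), and for PLAU, by 0.66 (95% interval 0.36 to 0.95, adjusted p = 0.0040). It was not different past the threshold for PLAUR (-0.18, 95% interval -0.51 to 0.15, adjusted p = 0.46) or MMP7 (0.91, 95% interval -0.09 to 1.91, adjusted p = 0.20).

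The effect of BCAA differed between the lines for 5 of the 9 members tested in both (MMP1, MMP2, TIMP2, PLAU and PLAT), against 21.1% of the 19406 genes tested in both. This share was not counted among genes with a mean of at least 100, where calls within a line were more frequent than over all genes. The MMP1 difference was 5.25 on the log2 scale (adjusted p = 1.8e-04), but its CAKI-1 side rests on 11 reads and its size moved between 3.46 and 7.16 with the alternatives. Each effect was taken within its own line, so the separate normalization of the lines does not enter this difference. The 2 lines were otherwise grown in different media, so a difference between them cannot be told apart from one of culture.

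On GRCh38 (GENCODE release 29), MMP1 (chr11:102789920-102798160) and MMP7 (chr11:102520508-102530753) lie near each other on the reverse strand of chromosome 11. MMP2 (chr16:55389700-55506691) and MMP14 (chr14:22836557-22849027) are on the forward strand, as are TIMP1 (chrX:47582313-47586789), TIMP3 (chr22:32801701-32863043) and PLAU (chr10:73909177-73917497). TIMP2 (chr17:78852977-78925387), PLAUR (chr19:43646095-43670547) and PLAT (chr8:42175233-42207724) are on the reverse strand. PLAU shares 916 of its 2950 exon bases (31.1%) with C10orf55 on the opposite strand, which had at most 52 reads in any library. TIMP2 shares 565 of 5633 exon bases with other genes, of which CEP295NL had at most 47 reads, and MMP2 shares 174 of 4933. MMP7, MMP14, TIMP1, TIMP3, PLAUR and PLAT share none. TIMP1 lies within SYN1 and TIMP3 within SYN3, both on the other strand, with at most 26 reads for SYN1 and 3 for SYN3.

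Levels of different members were compared as scaled reads per kilobase of exon within a line. In 769-P with BCAA the order was PLAU (3969 to 4088 per kilobase), TIMP1 (2662 to 2743), MMP14 (2155 to 2256), TIMP2 (1228 to 1286), MMP1 (221 to 271), PLAUR (230.4 to 233.7), MMP2 (163 to 185), PLAT (125 to 139), TIMP3 (43.3 to 44.5) and MMP7 (7.36 to 11.1). Of the neighbours in this order, MMP1 and PLAUR overlapped. Without BCAA MMP1 stood at rank 9 of 10, at 27.1 to 31.0 per kilobase, and MMP14 (2766 to 2782) ranked above TIMP1 (2358 to 2469.6). With the length of the longest transcript PLAUR stood at rank 5 with BCAA (638 to 647), above PLAT, MMP1 and MMP2, whose ranges overlapped from neighbour to neighbour. Without BCAA that length put TIMP1 (3319 to 3476) first, MMP14 (3308 to 3328) next and PLAU (3187 to 3426) after it, with overlapping ranges, so without BCAA the order of these 3 members depended on the length used.

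In CAKI-1 with BCAA TIMP2 (4911 to 5096 per kilobase) and MMP2 (4225 to 4506) led, and without BCAA MMP2 (5811 to 6159) led and TIMP2 (5272 to 5348) followed. MMP14, PLAU and TIMP1 came next, and with BCAA their ranges overlapped from neighbour to neighbour, at 2922 to 3277, 2397 to 3247 and 2638 to 2930. PLAUR, MMP7, PLAT and MMP1 followed in this order in both conditions. With the length of the longest transcript in place of all exons TIMP2 stood above MMP2 in CAKI-1 without BCAA, so the order of these 2 genes depends on the length used. MMP14 made up 82.8% to 84.6% of the summed level of the 4 MMPs in 769-P with BCAA and 94.7% to 95.7% without. In CAKI-1 MMP2 made up 54.1% to 59.7% of it over all 4 libraries.

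The lines also stood apart in several levels. As reads per 1000000 listed reads, which is a description across tables normalized separately, MMP2 was at 9.57 to 18.7 in 769-P and 532 to 768 in CAKI-1, and MMP7 at 0.10 to 0.53 and 9.30 to 18.3. TIMP2 was at 142 to 191 in 769-P and 703 to 762 in CAKI-1, and MMP14 at 201 to 254 and 331 to 448. MMP1 was the reverse, at 1.10 to 10.97 in 769-P and 0 to 0.23 in CAKI-1. PLAU at 175 to 248 and 180 to 245 and PLAT at 5.53 to 18.8 and 5.81 to 11.7 overlapped between the lines.

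Ratios of 5 pairs of genes were taken within each library, which leaves out the scaling of the library. With 2 libraries against 2 the exact permutation test (two-sided) cannot give a p below 0.333, so the ratios are given with their spread. The log2 ratio of MMP2 to TIMP2 was -2.92 and -3.17 with BCAA and -4.31 and -3.96 without in 769-P, higher with BCAA by 1.09. In CAKI-1 it was -0.32 and -0.46 with and 0.01 and -0.05 without, so it was lower with BCAA by 0.37. The ratio of MMP14 to TIMP2 in 769-P was 0.54 and 0.41 with BCAA and 0.41 and 0.42 without, with the conditions overlapping. In CAKI-1 it was -1.08 and -0.97 with and -0.76 and -0.74 without. The PLAU to PLAUR ratio was 3.53 and 3.51 with BCAA and 2.66 and 2.82 without in 769-P, and between 2.23 and 2.33 in all CAKI-1 libraries.

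PLAT gained on PLAU in 769-P, where the PLAU to PLAT log2 ratio was 3.72 and 3.82 with BCAA and 4.98 and 4.93 without. PLAU still made up 96.7% to 96.9% of the summed level per kilobase of both activators with BCAA, and 98.6% in both libraries without. The TIMP1 to TIMP2 ratio in 769-P was -0.75 and -0.78 with BCAA and -1.35 and -1.28 without, and in CAKI-1 it was -2.77 and -2.67 with and -2.83 and -2.81 without.

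**Figure D3:**
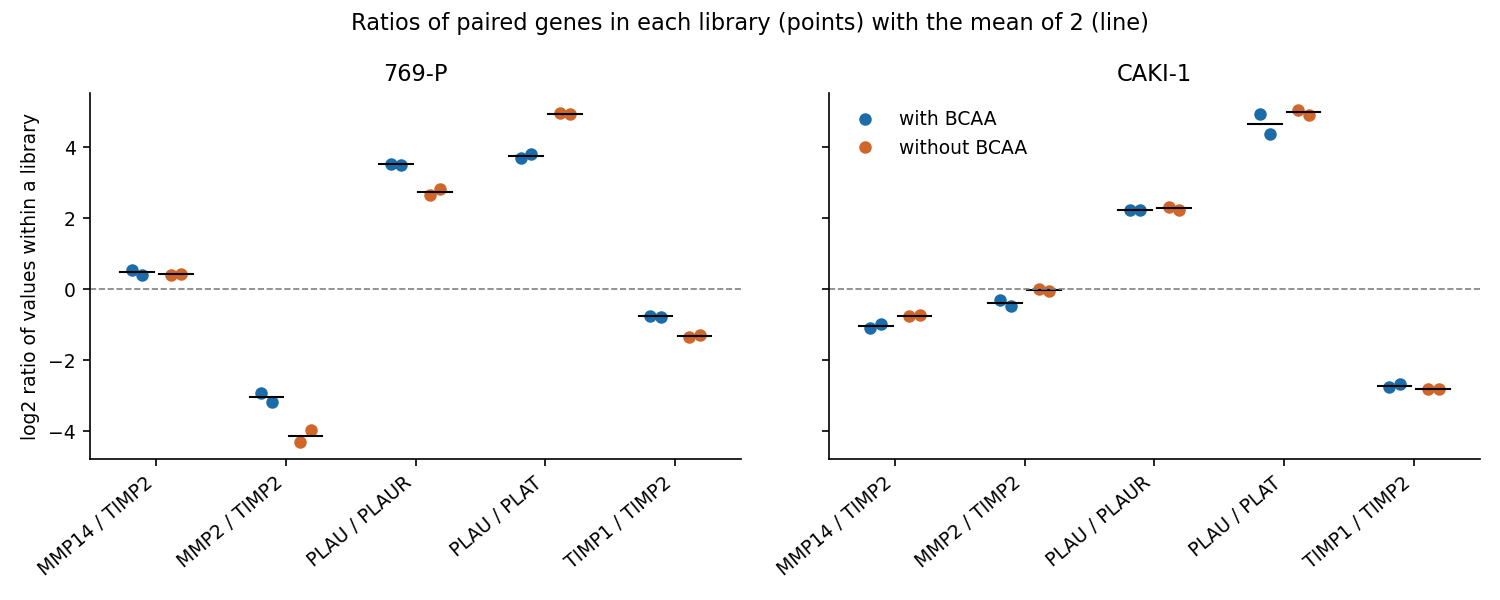
Log2 ratios of 5 gene pairs within each library (y axis), in 769-P (left) and CAKI-1 (right), with each point a library and black lines for the mean of 2 libraries. PLAU to PLAT in 769-P shows the widest gap between conditions (lower with BCAA, by 1.19 on the log2 scale), and MMP14 to TIMP2 in 769-P overlaps.

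The other genes of extracellular proteolysis were followed in 5 lists with 78 genes. In 769-P 63 of them were tested, with 20 higher, 12 lower and 31 not passing, and a median log2 fold change of 0.14. Over all genes tested there, 20.3% were called higher and 18.2% lower. In CAKI-1 62 were tested, with 7 higher, 9 lower and 46 not passing, and a median of -0.12. Over all genes there the shares were 10.8% and 9.05%. With a mean of at least 100, 31 of 40 passed in 769-P (63% of all such genes) and 15 of 41 in CAKI-1 (34.2%). In both lines 11 of these genes passed, 3 of them higher in both, 5 lower in both and 3 in opposite directions. Of the last 3, 1 (HTRA1) kept both calls under all 13 alternatives that leave out no library. The share of all genes called in both lines was not counted.

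Of the other MMPs, 2 of 8 tested were higher in 769-P and none lower. MMP16, a membrane-anchored relative of MMP14, was at 1678 and 1568 with BCAA and 508 and 548 without (log2 fold change 1.62, adjusted p = 1.5e-08), opposite in direction to MMP14. MMP9, gelatinase B, was at 84.9 and 89.8 with and 42.2 and 31.8 without (log2 fold change 1.23, adjusted p = 0.0041). In CAKI-1 0 of 10 tested passed with limma, 0 had an unadjusted p below 0.05, and edgeR and DESeq2 called 0, with MMP16 at 0.20 and MMP9 at -0.54 on the log2 scale. Of the inhibitors and regulators of MMPs, FURIN, a proprotein convertase, and SPOCK1 were higher and BSG and LRP1 lower among 6 tested in 769-P, with LRP1, an endocytic receptor for protease and inhibitor complexes, at 2228 and 2079 with BCAA and 3359.9 and 3581 without (log2 fold change -0.69). In CAKI-1 0 of 5 passed with limma, 0 had an unadjusted p below 0.05, and edgeR and DESeq2 called 0.

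In the plasminogen system outside the members, 6 of 15 genes tested in 769-P were higher and 3 lower. The serpin SERPINB8 was lower (log2 fold change -1.08). F2RL1, a receptor opened by serine proteases, was at 158 and 161 with BCAA and 91.9 and 73.4 without (log2 fold change 0.95). ENO1, a glycolytic enzyme that also binds plasminogen at the cell surface, was higher in both lines (0.28 and 0.46), and it was the single gene of 13 called in CAKI-1. Plasminogen itself was listed in neither line.

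Of the 15 ADAM and ADAMTS proteases, 4 were higher and 2 lower in 769-P, and 4 were higher and none lower in CAKI-1. ADAM19, a membrane sheddase, was higher in both, at 14359 and 11879 with BCAA and 3895 and 3921 without in 769-P (log2 fold change 1.74) and with a log2 fold change of 0.39 in CAKI-1. ADAM9, ADAMTS9 and ADAMTS12 were higher in CAKI-1 (0.34, 0.54 and 0.32) and did not pass in 769-P (0.10, -0.03 and -0.27), where ADAMTS12 had at most 3 reads a library. The CAKI-1 call of ADAMTS12 was lost in 3 of 13 alternatives that leave out no library, and those of ADAM9 and ADAMTS9 in 1 of 13 each.

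Of the other pericellular proteases and their inhibitors, 6 of 19 were higher and 5 lower in 769-P, and 2 were higher and 9 lower in CAKI-1. The lysosomal proteases CTSD (-0.45 in 769-P and -0.80 in CAKI-1) and CTSL (-0.49 and -0.28), the procollagen protease BMP1 (-0.29 and -0.19) and the inhibitors CSTB (-0.31 and -0.23) and SPINT2 (-0.20 and -0.55) were lower in both. PRSS23, a secreted serine protease, was higher in both (0.94 and 0.45). CTSB (0.43 and -0.27), HTRA1 (0.63 and -0.80) and ANPEP (0.16 and -0.28) were called in opposite directions. Under the 13 alternatives HTRA1 kept both calls, whereas the ANPEP call was lost in 6 of 13 in 769-P and 5 of 13 in CAKI-1, and the CTSB call in 1 of 13 and 5 of 13. The CAKI-1 calls of BMP1 and CSTB were also lost in 5 of 13. The cell-surface peptidase DPP4 was higher in 769-P (0.65) and did not pass in CAKI-1 (-0.25). The heparan sulfate-cleaving HPSE was higher in CAKI-1 (0.41), a call lost in 2 of the 13 alternatives. MME, chosen after its values were seen because it completes the 16 genes called in CAKI-1, had 2 and 10 reads with BCAA and 24 and 17 without.

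**Figure D4:**
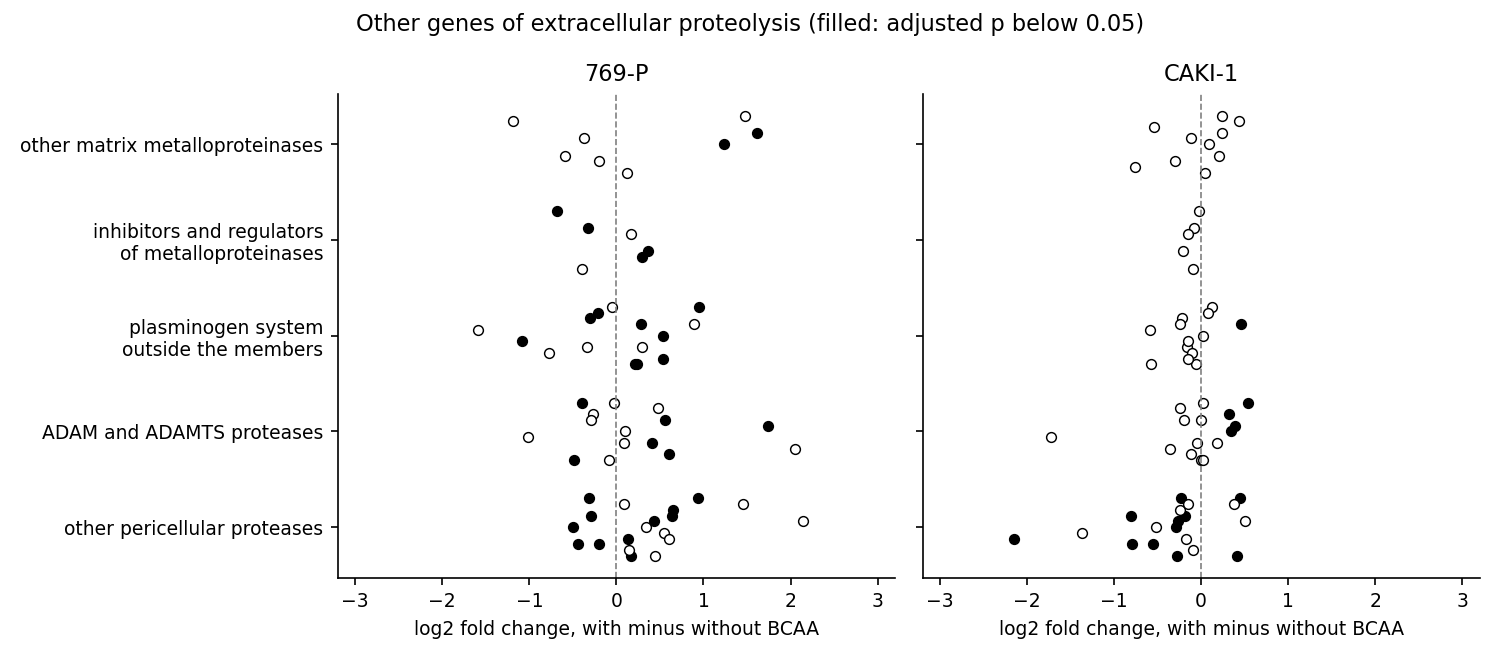
Log2 fold change, with minus without BCAA (x axis), of the tested genes of 5 other lists of extracellular proteolysis in 769-P (left, 63 genes) and CAKI-1 (right, 62 genes), with each point a gene, spread vertically for sight only, and filled where the adjusted p was below 0.05. Values span -1.59 to 2.15 in 769-P and -2.16 to 0.54 in CAKI-1, and 32 and 16 genes are filled.

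Sequence upstream of the gene start was available for 6 of the 10 members in RefSeq (GRCh38.p14), in 7 windows of 250 bases. They were searched on both strands for the AP-1 heptamer TGANTCA, the E-box CAGGTG that SNAIL factors bind, and TATAAA. The windows of MMP7, MMP14 and TIMP3 are shown with any match in capitals, since they belong to the member low in 769-P, to the one lower with BCAA in both lines, and to the inhibitor with the largest change.

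MMP7 (chr11:102530748-102530997, reverse strand): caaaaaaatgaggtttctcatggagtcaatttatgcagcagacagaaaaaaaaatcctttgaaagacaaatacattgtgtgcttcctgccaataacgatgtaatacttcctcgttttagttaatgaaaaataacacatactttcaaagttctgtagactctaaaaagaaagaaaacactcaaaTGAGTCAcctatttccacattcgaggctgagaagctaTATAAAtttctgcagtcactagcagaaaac

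MMP14 (chr14:22836335-22836584, forward strand): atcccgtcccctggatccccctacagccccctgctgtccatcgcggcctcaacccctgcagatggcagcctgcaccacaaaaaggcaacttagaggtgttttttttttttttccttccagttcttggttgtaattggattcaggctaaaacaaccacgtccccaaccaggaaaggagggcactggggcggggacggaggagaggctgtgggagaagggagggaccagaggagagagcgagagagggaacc

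TIMP3 (chr22:32801455-32801704, forward strand): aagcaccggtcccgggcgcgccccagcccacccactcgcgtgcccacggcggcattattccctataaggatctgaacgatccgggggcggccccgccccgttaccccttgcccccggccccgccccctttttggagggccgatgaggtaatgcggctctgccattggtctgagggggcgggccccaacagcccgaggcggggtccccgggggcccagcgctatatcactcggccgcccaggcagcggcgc

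The MMP7 window held TGAGTCA 67 bases and TATAAA 30 bases before the start and had a GC content of 33.6%, whereas MMP14 (56.8%) and TIMP3 (72.4%) held no match. A TGAGTCA also stood 186 bases before the PLAUR start, and a CAGGTG 233 bases before a PLAU start. Of the 35116 windows of all genes, 6.57% held the AP-1 heptamer, 17.5% the E-box and 10.7% the TATA box. A match here is a description of letters and was not tied to any factor.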

How the data were processed

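RNA-seq of 769-P and CAKI-1 cells with and without BCAA was analysed in 2 libraries per condition and line. Per the submitters' processing notes, which give no order, Trim Galore, TopHat2 2.1.0, SAMtools 1.3.1, HTSeq 0.6.0, DESeq and DESeq2 were used with hg38, and the annotation release and strand setting are not given in the sources used here. The authors deposited, per line, reads per gene divided by the library's size factor, a depth-scaled signal. Dividing each value by the smallest step recovered whole reads for 100% of values (tolerance 0.01 reads). Genes with fewer than 2 reads over the 4 libraries of a line were not listed.

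Values were tested as log2(value + 1) with limma 3.58.1 (R 4.3.3, intensity-dependent prior) within each line over genes with a mean of at least 1, with Benjamini-Hochberg adjustment over all genes and a threshold of 0.05. The interaction was fitted over all 8 libraries. The recovered reads were also tested with DESeq2 1.42.0 and with edgeR 4.0.16 as alternatives. Self-made scripts were tested on simulated data. Gene positions and exon lengths came from GENCODE release 29, and 25032 of 25431 and 23881 of 24190 identifiers had a symbol. Intervals of log2 fold changes come from the limma fit and rest on the spread between libraries, whereas the exact interval of an MMP1 read ratio covers counting error only. Of the other lists, genes called in both lines were named, and in each line up to 6 more called genes with the largest change and a mean of at least 20. The members and lists were chosen with earlier results of these data known, and nothing here is independent support for them. Sequences of the other 4 promoters and of proteins were not used here. A gene of the lists and the ratio that used it are not reported here.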

Additional observations from a re-analysis of the deposited data

Results flagged for a closer look

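The effect of BCAA differed between the 2 cell lines for 5 members by the interaction term of the limma fit over all 8 libraries. The value is the log2 fold change in 769-P minus that in CAKI-1. It was 5.25 for MMP1, which had 0 to 7 reads a library in CAKI-1. It was 1.16 for MMP2, which was called higher with BCAA in 769-P and lower in CAKI-1. It was 1.52 for PLAT and 0.66 for PLAU, which did not pass the test in CAKI-1, and -0.30 for TIMP2. No outlier test was run, since each group held 2 libraries.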

How the results depend on the processing

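MMP1 in CAKI-1 and MMP7 in 769-P were limited by their few reads. Requiring at least a 1.5-fold change left 3 members higher and 1 lower in 769-P, and 0 higher and 0 lower in CAKI-1. Over all genes this left 1984 higher and 1911 lower of 22391 in 769-P. In CAKI-1 it left 725 higher and 481 lower of 21347, so few calls were left there for any set of genes. The 1 member higher in CAKI-1 (MMP7) became 0 with the spread of all 8 libraries, pseudocounts of 0.1 and 10, no filter, a minimum mean of 10, quantile normalization and thinned reads. With quantile normalization TIMP1 in CAKI-1 turned to -0.050 and the difference between lines for ENO1 to 0.0047.

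With 1 library left out and 3 remaining, where the lone library was assumed to vary like the others, 2 to 3 members were higher and 0 to 3 lower in 769-P, with MMP2, TIMP1 and PLAUR lost in each of the 4 fits. In CAKI-1 this limma fit called 0 of 21347 genes, with 4084 to 5590 at an unadjusted p below 0.05, so its 0 members say nothing about stability. Chosen after seeing the data, a fit took the spread from the other 7 libraries. In 769-P the calls of TIMP1 and PLAUR were lost and MMP7 was gained, while TIMP3 is not in that fit. In CAKI-1 MMP2 and MMP14 kept their calls, and MMP7 lost its call in each of the 4 fits (log2 fold change 0.23 to 0.86). PLAU and PLAUR were called lower without the second library with BCAA, PLAT higher without the first, and MMP1 lower in all but 1 fit. In these fits, with 1 library left out, TIMP1 in CAKI-1 ranged from -0.060 to 0.091, PLAUR from -0.39 to 0.054 and PLAT from -0.40 to 0.60, and the difference between lines from -0.052 to 0.11 for MMP14 and from -0.40 to 0.040 for PLAUR. The 5 members that differed between the lines stayed called in all 8 of these fits.

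Same-numbered libraries did not deviate together (correlation -0.088 in 769-P and 0.061 in CAKI-1). With a replicate block, 6 members were higher and 4 lower in 769-P (MMP7 was added), 1 was higher and 2 lower in CAKI-1, and 5 differed between the lines. Over all genes the block gave 4692 higher and 4233 lower of 22391 in 769-P, and 2133 and 1803 of 21347 in CAKI-1. For the difference between the lines it gave 1824 and 1667 of 19406.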
